A study of Mus musculus with 12 samples.

Results

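The 8 genes described here are Hmgcs1, Idi1, Fdft1, Sqle, Lss, Cyp51 and Dhcr7, which encode enzymes of cholesterol synthesis, and Insig1, which encodes a brake on the same pathway. The 8 were chosen with earlier results of these data known. Their rows were taken by gene symbol from tables of 19718 or 19996 genes, and all 8 passed the filter on low values in each comparison. They were read in RNA-seq libraries of mouse embryonic stem cells, 12 in all, with 2 in each of 6 groups. Nothing in the labels says that the libraries of a group are separate cultures; the p-values below may thus rest on technical spread alone.

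A pair of media was used for cells of the Foxd3fl/fl;Cre-ER line, in which 4-hydroxytamoxifen activates a Cre recombinase that removes the transcription factor gene Foxd3. In 2i (serum-free N2B27 with the MEK inhibitor PD0325901 at 0.4 µM, the GSK3β inhibitor CHIR99021 at 3 µM and leukemia inhibitory factor, LIF), one group had been given tamoxifen at 2 µM for 3 days and is labelled Foxd3-/-, and the other, Foxd3fl/fl, had not. In SL (15% fetal bovine serum with LIF, on irradiated fibroblast feeders), the same line was again either tamoxifen-treated (Foxd3-/-) or untreated (Foxd3fl/fl). The last pair of groups, tetON Foxd3 cells, which overexpress Foxd3, and wild-type (WT) LF2 cells, both received doxycycline (1 µg/µl) for 3 days in serum with LIF without feeders. No group received tamoxifen without the floxed allele, so the drug and the deletion cannot be told apart.

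Cells make cholesterol from acetyl-CoA through mevalonate, isoprenoids, squalene and lanosterol. The transcription factors SREBP1 and SREBP2 are held in the endoplasmic reticulum by SCAP and INSIG proteins when sterols are plentiful; when sterols run low they move to the Golgi, are cut by proteases and switch on genes of sterol synthesis, sterol uptake and fatty acid synthesis. Insig1 is itself a target of SREBP, so it is part of a feedback loop, and serum lipoproteins are a source of sterol for cultured cells.

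The promoters of 3 members are shown: Insig1, which varied most across the libraries, and Hmgcs1 and Idi1, which varied alike and opposite to Insig1 in 2i as deposited. Promoter windows of 300 bases (250 before the start site and 50 after it) were matched in RefSeq, build GRCm38.p6, for 6 of the 8 members; none is given for Sqle or Fdft1. All 3 windows are on the plus strand, Hmgcs1 at chr13:119690101-119690400, Idi1 at chr13:8885356-8885655 and Insig1 at chr5:28071162-28071461. Capitals mark matches, on either strand, to a sterol regulatory element (TCACNCCAC), a CCAAT box (CCAAT, or ATTGG on the other strand), a GC box (GGGCGG, or CCGCCC) and an E-box (CACGTG); no matches overlap.
Hmgcs1: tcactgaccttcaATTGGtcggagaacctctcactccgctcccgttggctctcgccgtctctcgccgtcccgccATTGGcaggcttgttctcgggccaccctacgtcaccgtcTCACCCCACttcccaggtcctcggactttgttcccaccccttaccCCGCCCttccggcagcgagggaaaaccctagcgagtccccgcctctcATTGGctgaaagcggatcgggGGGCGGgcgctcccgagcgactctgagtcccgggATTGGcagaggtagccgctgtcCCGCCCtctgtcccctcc
Idi1: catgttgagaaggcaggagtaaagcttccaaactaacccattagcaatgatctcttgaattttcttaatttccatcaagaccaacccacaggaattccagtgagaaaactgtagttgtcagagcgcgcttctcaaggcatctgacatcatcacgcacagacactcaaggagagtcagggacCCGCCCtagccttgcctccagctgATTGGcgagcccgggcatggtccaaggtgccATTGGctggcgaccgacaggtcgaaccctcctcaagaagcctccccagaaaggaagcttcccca
Insig1: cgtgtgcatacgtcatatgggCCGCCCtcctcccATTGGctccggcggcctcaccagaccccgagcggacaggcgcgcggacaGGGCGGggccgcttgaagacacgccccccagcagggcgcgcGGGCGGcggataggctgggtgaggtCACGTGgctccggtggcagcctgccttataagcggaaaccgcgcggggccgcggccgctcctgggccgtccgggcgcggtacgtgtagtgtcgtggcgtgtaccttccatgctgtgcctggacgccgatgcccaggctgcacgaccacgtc

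The Hmgcs1 window held 1 match to the sterol regulatory element, at base 114 of the window, with 4 CCAAT boxes and 3 GC boxes. The Idi1 window held 2 CCAAT boxes and 1 GC box, and the Insig1 window 1 CCAAT box, 3 GC boxes and 1 E-box. Among all 32851 mouse promoter windows of this length, 1.24% held the sterol regulatory element, 37.4% a CCAAT box, 35.7% a GC box and 7.15% the E-box. The other 3 members with a window, Lss, Cyp51 and Dhcr7, had no match to these letters of the sterol regulatory element. These are matches of letters only; binding was not measured.

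Foxd3 itself was read first as a check of the labels. In SL it had 1.62 and 1.83 FPKM (fragments scaled to transcript length and sequencing depth) in Foxd3-/- libraries, against 4.53 and 4.81 FPKM in Foxd3fl/fl libraries. With doxycycline it had 53.2 and 50.1 FPKM in tetON libraries, against 10.6 and 14.1 FPKM in WT libraries. In 2i it had 2.07 and 2.45 FPKM in the libraries labelled Foxd3-/-, against 2.51 and 2.42 FPKM in Foxd3fl/fl libraries, so the groups overlapped and the deletion label in 2i is not borne out by this transcript. The 8 embryonic stem cell markers read were all at 1 FPKM or more in every group. The 12 fibroblast markers summed to 444 to 445 FPKM in libraries labelled Foxd3-/- and 510 to 525 FPKM in Foxd3fl/fl libraries in 2i, to 730 to 824 FPKM in Foxd3-/- and 553 to 573 FPKM in Foxd3fl/fl libraries in SL, and to 370 to 379 FPKM in tetON and 208 to 209 FPKM in WT libraries. Fn1 and Vim, which these embryonic stem cell libraries hold in every group, make up most of each sum. In untreated cells Fn1 was higher in 2i, unlike the 4 examples below. On average Fn1 had 302 FPKM in Foxd3fl/fl 2i and 133 FPKM in Foxd3fl/fl SL. Vim had 206 and 223 FPKM in the same groups, with overlapping libraries. Of the others, 4 are given as examples for untreated cells: on average Bgn had 0.265 FPKM in Foxd3fl/fl 2i and 74.6 FPKM in Foxd3fl/fl SL, Thbs1 1.21 and 44.2 FPKM in the same groups, Col1a2 1.31 and 31.5 FPKM, and Col1a1 3.43 and 32.0 FPKM. Lum was at 0 in both 2i groups, Col3a1 and Lum in tetON, and Col3a1, Lum and Dcn in WT. In bulk RNA, fewer cells of a type and less RNA per cell cannot be told apart. Depth per library is not given here; the authors' mean reads per gene summed to 24278898 and 27062508 for the libraries labelled Foxd3-/- and Foxd3fl/fl in 2i, and to between 52789850 and 54096080 for the other 4 groups.

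Hmgcs1, whose enzyme makes HMG-CoA ahead of mevalonate, was the most highly expressed member on average in FPKM. It had 90.3 and 94.1 FPKM in the 2i libraries labelled Foxd3-/- and 74.8 and 75.3 FPKM in Foxd3fl/fl 2i. In SL it had 93.8 and 84.2 FPKM in Foxd3-/- libraries and 85.3 and 87.5 FPKM in Foxd3fl/fl libraries. It had 52.4 and 53.8 FPKM in tetON libraries and 64.5 and 50.8 FPKM in WT libraries. The 4 doxycycline libraries were the lowest, Foxd3fl/fl 2i lay next above them, and among the other 3 groups Foxd3-/- SL overlapped both Foxd3-/- 2i and Foxd3fl/fl SL, which did not overlap each other.

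Idi1 encodes the isomerase that makes dimethylallyl diphosphate, the starter of isoprenoid chains. It had 41.2 and 41.9 FPKM in the 2i libraries labelled Foxd3-/- and 32.4 and 32.7 FPKM in Foxd3fl/fl 2i. The SL libraries had 46.6 and 41.6 FPKM in Foxd3-/- libraries and 49.4 and 42.4 FPKM in Foxd3fl/fl libraries. It had 24.6 and 29.3 FPKM in tetON libraries and 34.9 and 27.3 FPKM in WT libraries. Among neighbours in the order of levels, the only gap without overlap lay between Foxd3-/- 2i and Foxd3fl/fl 2i.

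Fdft1 encodes squalene synthase, the first enzyme committed to sterols. It had 53.9 and 54.6 FPKM in the 2i libraries labelled Foxd3-/- and 69.3 and 67.8 FPKM in Foxd3fl/fl 2i. Levels in SL were 48.1 and 44.1 FPKM in Foxd3-/- libraries and 49.5 and 48.8 FPKM in Foxd3fl/fl libraries. It had 28.2 and 26.5 FPKM in tetON libraries and 46.2 and 35.4 FPKM in WT libraries. Foxd3fl/fl 2i was highest and tetON lowest, and of neighbouring groups only Foxd3-/- SL and WT overlapped.

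Sqle (ENSMUSG00000022351, chr15:59315077-59331192, plus strand, in the GENCODE annotation of GRCm38) encodes squalene epoxidase, a rate-limiting enzyme of the sterol branch. It had 36.9 and 40.9 FPKM in the 2i libraries labelled Foxd3-/- and 26.3 and 25.1 FPKM in Foxd3fl/fl 2i. In SL it had 46.0 and 45.2 FPKM in Foxd3-/- libraries and 45.7 and 47.8 FPKM in Foxd3fl/fl libraries. It had 22.7 and 28.8 FPKM in tetON libraries and 27.6 and 26.6 FPKM in WT libraries. The order differed from that of Fdft1: both SL groups were highest, the 2i libraries labelled Foxd3-/- lay below them, and Foxd3fl/fl 2i lay among the doxycycline libraries.

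Lss and Cyp51 follow in the pathway, as lanosterol synthase and as the demethylase of lanosterol. Lss varied least of the 8 members, from 15.6 FPKM in a tetON library to 24.3 FPKM in a Foxd3fl/fl 2i library, a ratio of 1.56. Of neighbouring groups in its order, only WT and tetON (15.7 and 15.6 FPKM in tetON, against 23.1 and 16.4 FPKM in WT) did not overlap. Cyp51 ranged from 16.4 FPKM in a WT library to 34.3 FPKM in a Foxd3-/- SL library. It had 28.7 and 26.5 FPKM in the 2i libraries labelled Foxd3-/- and 27.9 and 30.9 FPKM in Foxd3fl/fl 2i, and these groups overlapped; its SL libraries, at 31.4 to 34.3 FPKM, all lay above them.

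Dhcr7, the reductase of the last step to cholesterol, had 38.2 and 41.3 FPKM in the 2i libraries labelled Foxd3-/- and 44.4 and 48.6 FPKM in Foxd3fl/fl 2i. Its levels in SL were 24.9 and 28.9 FPKM in Foxd3-/- libraries and 29.3 and 36.6 FPKM in Foxd3fl/fl libraries. It had 18.5 and 15.2 FPKM in tetON libraries and 22.5 and 14.1 FPKM in WT libraries. Its groups stood in order 2i, SL, doxycycline, with overlap only between the 2 doxycycline groups.

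Insig1 (ENSMUSG00000045294, chr5:28071363-28078662, plus strand) varied most, by a ratio of 4.67 between its highest library and its lowest. It had 49.6 and 53.3 FPKM in the 2i libraries labelled Foxd3-/- and 88.6 and 85.3 FPKM in Foxd3fl/fl 2i. In SL it had 55.0 and 61.2 FPKM in Foxd3-/- libraries and 55.3 and 68.8 FPKM in Foxd3fl/fl libraries. It had 26.7 and 22.0 FPKM in tetON libraries and 38.8 and 19.0 FPKM in WT libraries. Foxd3fl/fl 2i stood above all other libraries, and the doxycycline libraries below them.

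**Figure D1:**
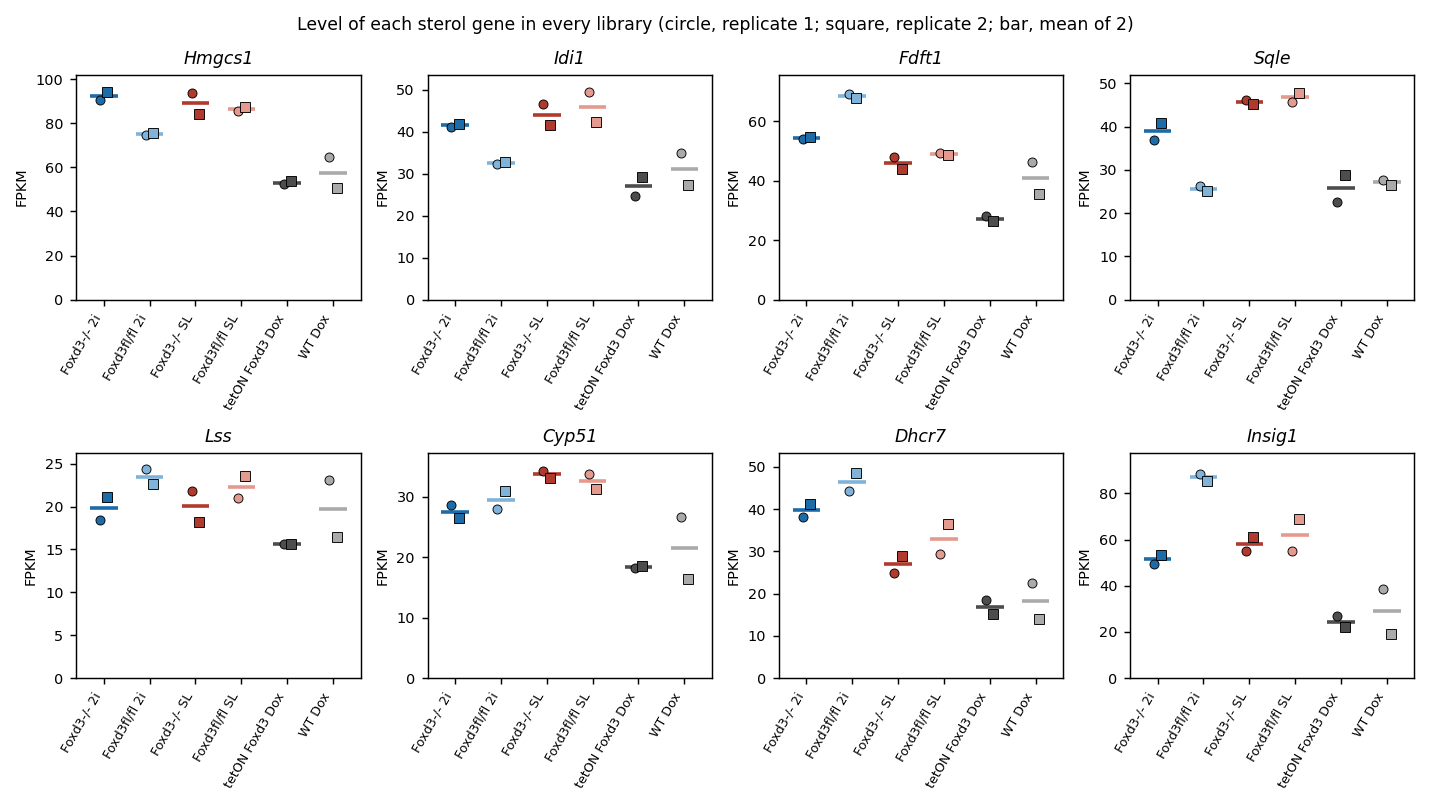
FPKM of each of the 8 genes in the 12 libraries (1 panel a gene; groups along the x axis, replicate 1 as a circle, replicate 2 as a square, the bar the mean of 2). Insig1 is highest in Foxd3fl/fl 2i (88.6 and 85.3 FPKM), and Sqle is lower there (26.3 and 25.1 FPKM) than in either SL group.

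The question of the medium was put to untreated floxed cells, 2i against SL. Fdft1, Insig1 and Dhcr7 were higher in both 2i libraries than in both SL libraries, and Sqle, Idi1, Hmgcs1 and Cyp51 lower, so enzymes of one pathway lay on both sides. These levels come from tables that the authors may have scaled separately, so they are described with no test; medium, feeders and table differ together and cannot be told apart. Differences are of log2(FPKM + 1), 2i minus SL, for means of 2 libraries. Of all 12145 genes, 30.3% were higher in both 2i libraries and 54% lower, and the median difference of all genes was -0.23. The counts of 3 higher and 4 lower of 8 members stand beside those shares.

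Insig1 averaged 86.9 ± 2.37 FPKM in Foxd3fl/fl 2i and 62.0 ± 9.58 FPKM in Foxd3fl/fl SL (SD, n = 2 each), a log2 difference of 0.49. Fdft1 averaged 68.6 ± 1.05 FPKM in 2i and 49.2 ± 0.481 FPKM in SL, a difference of 0.47, and Dhcr7 differed by 0.49. Sqle averaged 25.7 ± 0.809 FPKM in 2i and 46.7 ± 1.53 FPKM in SL, a difference of -0.84, the furthest from 0 among the members. Idi1 differed by -0.48, Hmgcs1 by -0.20, Cyp51 by -0.14 and Lss, whose libraries overlapped, by 0.07.

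Scaling each library by its median ratio to the others moved the median of all genes from -0.23 to 0.04, and with it the members. Sqle (-0.56) and Idi1 (-0.20) were still lower in both 2i libraries, and Insig1 (0.77), Fdft1 (0.76) and Dhcr7 (0.77) still higher. Lss became higher at 0.35, Hmgcs1 turned to higher at 0.09, and Cyp51 turned to 0.14 with overlap. After scaling, 5 members were higher and 2 lower, beside 43.8% and 39.6% of all genes. As a share of the authors' mean reads, the differences were -0.67 for Sqle, -0.40 for Idi1, -0.03 for Hmgcs1, 0.02 for Cyp51, 0.31 for Lss, 0.74 for Fdft1, 0.69 for Insig1 and 0.61 for Dhcr7. The direction for Hmgcs1 and Cyp51 therefore depends on the scaling.

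In tamoxifen-treated cells the differences between media lay nearer 0 than in untreated cells for 6 of 8 members, on FPKM as deposited. Dhcr7 (0.55) and Fdft1 (0.23) were higher in both 2i libraries labelled Foxd3-/- than in both SL Foxd3-/- libraries, and Sqle (-0.23), Cyp51 (-0.28) and Insig1 (-0.17) lower. That is 2 higher and 3 lower of 8, beside 39.5% and 45.7% of all genes. After scaling, 3 were higher and 2 lower, beside 45.6% and 39.4%. For Insig1 the value in tamoxifen-treated cells was -0.07 after scaling, with overlapping libraries, and -0.04 as a share of mean reads, so its groups in those cells lay apart on FPKM as deposited and not after scaling.

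**Figure D2:**
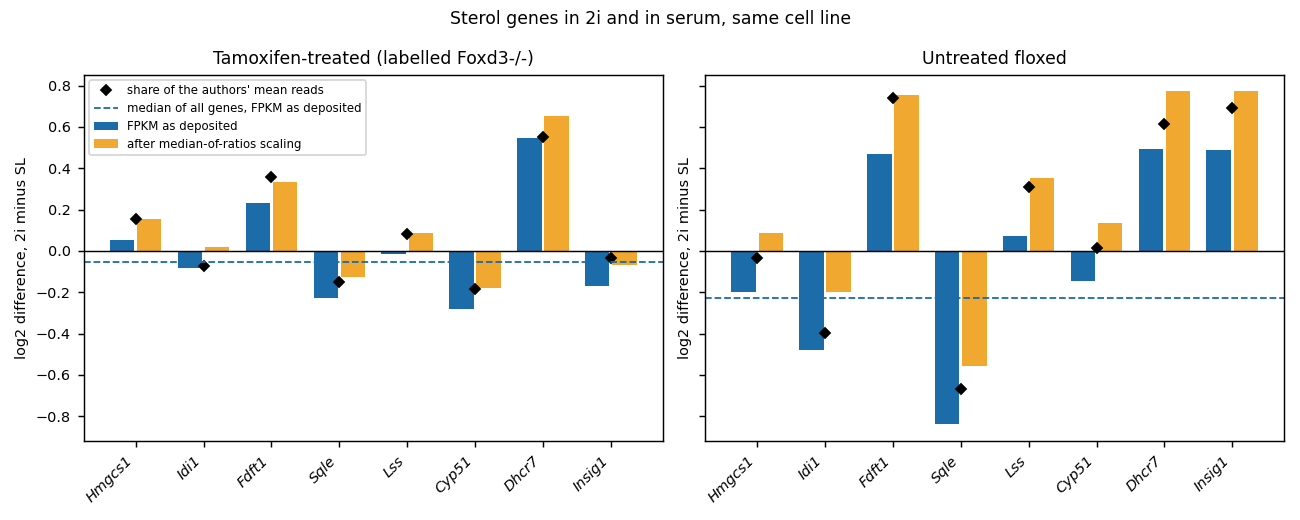
Log2 difference of each gene, 2i minus SL, in tamoxifen-treated (left) and untreated (right) cells of the floxed line: blue bars, FPKM as deposited; orange bars, after median-of-ratios scaling; diamonds, share of the authors' mean reads; dashed line, median of all genes on FPKM as deposited. In untreated cells Sqle lies at -0.84 and Insig1 at 0.49, and Hmgcs1 and Cyp51 lie below 0 as deposited and above 0 after scaling.

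The other genes of the pathway are given from lists that were drawn up with earlier results of these data known. In untreated floxed cells the shares of all genes to set beside each count are 30.3% higher and 54% lower in 2i as deposited, and 43.8% and 39.6% after scaling. Of the 13 other sterol enzymes measured, 7 were higher and 5 lower in 2i, and 9 and 3 after scaling. Tm7sf2, a sterol reductase gene, differed by 0.66, and Fdps, the synthase of farnesyl diphosphate, by 0.22. The list's median difference was 0.12, beside -0.23 for all genes, and after scaling 0.39 beside 0.04.

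Of the 8 genes that run the SREBP system, 4 were higher and 4 lower in 2i in untreated floxed cells, on both scales. The transcription factor genes themselves were higher, Srebf1 by 1.17 and Srebf2 by 0.66. Lower in 2i were Scap, their escort (-1.06), the protease gene Mbtps1 (-0.94) and the ubiquitin ligase gene Rnf139 (-1.13). Srebf1 had 49.0 and 52.5 FPKM in Foxd3fl/fl 2i, against 18.3 and 26.2 FPKM in Foxd3fl/fl SL.

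Of the 6 genes of sterol uptake and trafficking, 3 were higher and 2 lower as deposited, and 4 and 2 after scaling. The sterol exporter of lysosomes Npc1 differed by -0.89, while its partner Npc2 differed by 1.00 and the sterol carrier Stard4 by 0.83. Of the 11 genes of fatty acid synthesis, 6 were higher and 2 lower as deposited, and 8 and 1 after scaling. The desaturase gene Scd1 had 80.5 and 83.7 FPKM in Foxd3fl/fl 2i, against 14.5 and 21.2 FPKM in Foxd3fl/fl SL, a difference of 2.16, and Acss2, which makes acetyl-CoA, differed by 1.07. Fasn, the fatty acid synthase, differed by -1.42 in FPKM and by -0.70 as a share of mean reads, so its size is uncertain.

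Of the 7 genes of the LXR response and sterol efflux that passed the filter, 5 were higher and 1 lower in 2i (6 and 1 after scaling), with Abcg1, a sterol exporter, at 1.33, the apolipoprotein gene Apoe at 1.14 and the receptor gene Nr1h2 at -1.19. Of the 7 genes of the isoprenoid branches, 1 was higher and 5 lower (2 and 4 after scaling), the direction of most genes as deposited, with Pdss1 of ubiquinone synthesis at -0.93 and the geranylgeranyl diphosphate synthase gene Ggps1 at -0.75.

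Within 2i, the libraries labelled Foxd3-/- were set against Foxd3fl/fl libraries, within 1 table and with limma. Insig1 fell and Sqle rose by most, and 7 of 8 members passed the test: Sqle, Idi1 and Hmgcs1 rose, and Insig1, Fdft1, Lss and Dhcr7 fell. Of all 11637 genes, 47.9% rose and 19.7% fell, and the median of all genes was 0.19. Of the 12 fibroblast markers 6 passed the filter in these libraries: Thbs1 (1.17), Col1a1 (0.99) and Col1a2 (0.92) rose, Thy1 (-1.61) and Vim (-0.94) fell, and Fn1 was at 0.08 (-0.14 after scaling), not called on either scale; their part in the result was not tested.

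For Insig1, the log2 difference was -0.75 (SE 0.058, limma adjusted p = 2.28e-05). For Sqle it was 0.58 (SE 0.070, limma adjusted p = 0.000165). Fdft1 followed at -0.33 (limma adjusted p = 0.000620), Idi1 at 0.34 and Hmgcs1 at 0.29. Dhcr7 was at -0.22 (limma adjusted p = 0.0189) and Lss at -0.24 (limma adjusted p = 0.0299), and each of these lost its call when 1 of the 4 libraries was left out (Dhcr7 -0.17 without Foxd3-/- replicate 1 and -0.16 without Foxd3fl/fl replicate 2, Lss -0.15 without Foxd3-/- replicate 1 and -0.19 without Foxd3fl/fl replicate 1). Cyp51 was not called, at -0.09 (95% interval -0.26 to 0.08).

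Once scaled by median ratios, which put the median of all genes at -0.02, 1 member rose and 5 fell, beside 30.3% and 33.8% of all genes. Sqle was then at 0.36, and Insig1 (-0.97), Fdft1 (-0.55), Lss (-0.45), Dhcr7 (-0.44) and Cyp51 (-0.31) fell; Idi1 (0.12) and Hmgcs1 (0.07) did not pass. The authors' deposited table gave the same 1 and 5, beside 20.6% and 20.2% of its genes, with signed fold changes of 1.26 for Sqle, -1.97 for Insig1, -1.55 for Fdft1, -1.41 for Dhcr7, -1.32 for Lss and -1.25 for Cyp51. The rise of Hmgcs1 and Idi1 thus held only on FPKM as deposited.

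Among the other lists in this contrast, 7 of 13 sterol enzymes rose and 2 fell as deposited, near the 47.9% and 19.7% of all genes, and 1 rose and 2 fell after scaling, beside 30.3% and 33.8%. On both scales the sterol demethylation enzyme gene Msmo1 rose (0.46, and 0.24 after scaling) and Fdps fell (-0.32, and -0.54 after scaling). Of the SREBP genes, Mbtps1 (0.76), Mbtps2 (0.67) and Rnf139 (0.68) rose and Srebf1 (-0.24) fell on both scales. Abcg1 fell by 2.49 on the log2 scale, with 1.37 and 1.60 FPKM in libraries labelled Foxd3-/- against 13.1 and 12.8 FPKM in Foxd3fl/fl libraries.

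In SL, where Foxd3 was lower in Foxd3-/- cells, none of the 8 members passed the limma test, beside 0.00832% of all genes higher and 0% lower. None reached an unadjusted p under 0.05 either, and the authors' deposited p-values gave 0 of 8 by both counts, beside 0.44% of their genes higher and 0.095% lower. The difference furthest from 0 was that of Dhcr7, at -0.28 (95% interval -0.63 to 0.08), and the other 7 lay between -0.15 and 0.05. For Insig1 the interval was -0.42 to 0.24 and for Sqle -0.28 to 0.21.

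The response to tamoxifen was compared between media in 1 model of the 8 libraries, in which a factor common to a table cancels. Sqle and Insig1 passed, in opposite directions: the response of Sqle was higher in 2i than in SL by 0.61 (SE 0.114, limma adjusted p = 0.00958) and that of Insig1 lower (difference -0.66, SE 0.155, limma adjusted p = 0.0197). That is 1 higher and 1 lower of 8, beside 18.4% and 5.55% of all genes. After scaling both passed (0.41 and -0.87), as did Fdft1 at -0.45, beside 9.84% and 11.7% of all genes. These calls rest on few libraries: Sqle missed the threshold without Foxd3-/- 2i replicate 2 (limma adjusted p = 0.0610) or Foxd3fl/fl 2i replicate 2 (limma adjusted p = 0.0514), and Insig1 when any 1 of the 4 2i libraries, or Foxd3-/- SL replicate 2, was left out (limma adjusted p = 0.0515 to 0.0778), while both values kept their sign. Idi1 passed, at 0.50, without Foxd3fl/fl SL replicate 2.

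**Figure D3:**
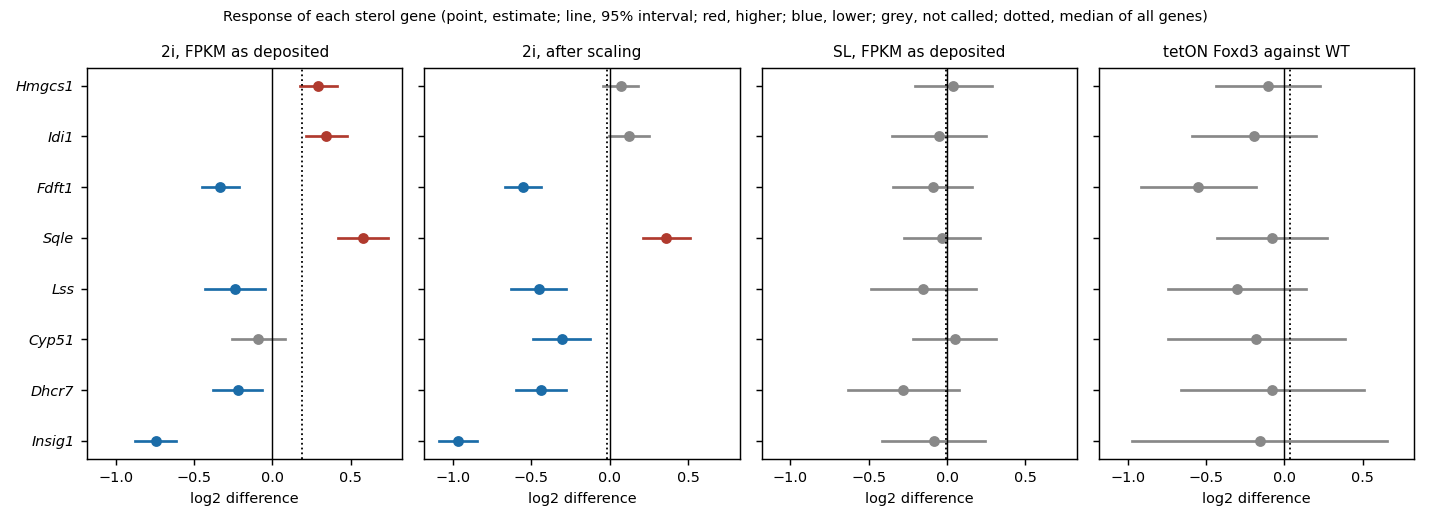
Log2 difference (point) with its 95% interval (line) of each gene: libraries labelled Foxd3-/- minus Foxd3fl/fl in 2i as deposited and after scaling, Foxd3-/- minus Foxd3fl/fl in SL, and tetON Foxd3 minus WT; red is called higher, blue lower, grey not called, and the dotted line is the median of all genes. In 2i Insig1 lies at -0.75 and Sqle at 0.58, while in SL and with tetON Foxd3 all 8 genes are grey.

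For overexpression of Foxd3, tetON libraries were tested against WT libraries, both with doxycycline. There was no group of tetON cells without doxycycline, so overexpression and other differences between the lines cannot be told apart. None of the 8 members passed the limma test, beside 0.994% of all genes higher and 1.65% lower (0.843% and 1.65% after scaling); 1 of 8, Fdft1, had an unadjusted p under 0.05. Fdft1 differed by -0.55 (95% interval -0.92 to -0.18, limma adjusted p = 0.117), and both tetON libraries lay below both WT libraries. In the authors' deposited table Fdft1 had a signed fold change of -1.52 with a p-value of 0.00352, which adjusted here over that table was 0.0677; by that test 0 members were called, beside 1.96% of its genes higher and 2.59% lower. The other 7 differences lay between -0.30 and -0.08, with wide intervals (Insig1 -0.97 to 0.66). Of the 8 SREBP system genes 1 fell, Mbtps2 (11.6 and 12.5 FPKM in tetON libraries, against 21.8 and 24.5 FPKM in WT libraries), a protease that cuts SREBP (limma adjusted p = 0.0372). In the authors' deposited table none of these 8 was called, Mbtps2 with an adjusted p of 0.0547, and without the filter on low values limma called no gene in this contrast (3232 at an unadjusted p under 0.05).

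The WT libraries stood apart from each other in these genes. All 8 members were higher in WT replicate 1 than in WT replicate 2, beside 51.5% of all genes. The log2 gap was 1.00 for Insig1, 0.67 for Cyp51, 0.64 for Dhcr7, 0.47 for Lss, 0.37 for Fdft1, 0.34 for Idi1, 0.34 for Hmgcs1 and 0.05 for Sqle. In the other groups replicate 1 was the higher for 1 of 8 members in the 2i libraries labelled Foxd3-/- (37.1% of all genes), 4 in Foxd3fl/fl 2i (56%), 6 in Foxd3-/- SL (47.2%), 3 in Foxd3fl/fl SL (48.2%) and 4 in tetON (53.7%). No member's gap there passed 0.33 in size, that of Sqle in tetON. Of the genes of fatty acid synthesis 10 of 11 were higher in WT replicate 1, Scd1 with 28.9 FPKM there and 9.51 FPKM in WT replicate 2, but of the 8 SREBP system genes only 2. The fatty acid genes were not particular to WT in this. In tetON libraries 11 of 11 were higher in replicate 1, Scd1 with 17.2 FPKM there and 8.11 FPKM in tetON replicate 2. Without WT replicate 1 the tetON difference turned positive for Hmgcs1 (0.06), Cyp51 (0.16), Dhcr7 (0.24) and Insig1 (0.34), and Fdft1 was at -0.36.

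**Figure D4:**
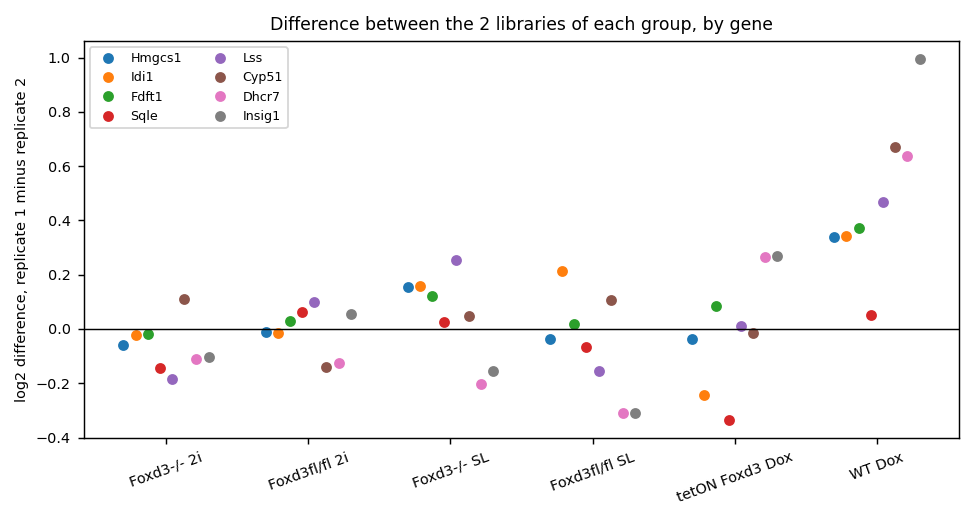
Log2 difference between replicate 1 and replicate 2 of each group (x axis) for each gene (colours, the value on log2(FPKM + 1)). All 8 points of the WT group lie above 0, up to 1.00 for Insig1, and the other groups scatter around 0.

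Summed over the 8 genes, the level was 207 and 210 FPKM in tetON libraries and 284 and 206 FPKM in WT libraries, against 357 to 388 FPKM in all 8 libraries of the floxed line. By group of the floxed line it was 357 and 374 FPKM in the 2i libraries labelled Foxd3-/-, 388 and 388 FPKM in Foxd3fl/fl 2i, 371 and 357 FPKM in Foxd3-/- SL and 369 and 387 FPKM in Foxd3fl/fl SL. Hmgcs1, Dhcr7 and Insig1 were lower in all 4 doxycycline libraries than in all 8 of the floxed line, 3 of 8 members, beside 8.44% of all genes. Without WT replicate 1 the count was 7 of 8, all but Sqle, beside 9.63% of all genes, and after scaling the 12 libraries together it was 6 of 8, beside 9.78%. The median log2 difference was -0.62 for the members and 0.05 for all genes. For the 13 other sterol synthesis enzymes measured it was -0.015, so the lower level of the members did not extend to that list. Of those 13, 3 were below and 2 above all 8 libraries of the floxed line in all 4 doxycycline libraries. Of all 12244 genes, 1034 were below and 1386 above. Cell line, feeders, doxycycline and table differ together here and cannot be told apart.

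Across the 12 libraries every correlation between members was positive, with differing strength. Pearson's r on log2(FPKM + 1) was highest for Dhcr7 with Insig1 (0.93), Idi1 with Sqle (0.91), Hmgcs1 with Idi1 (0.91) and Fdft1 with Dhcr7 (0.90). It was 0.89 both for Hmgcs1 with Cyp51 and for Fdft1 with Insig1, so the members did not divide into separate pairs. The lowest r, 0.23, was that of Fdft1 with Sqle, which act in consecutive steps. Against the mean of the 8 standardised members, Cyp51 and Hmgcs1 stood closest (both 0.95) and Sqle furthest (0.67). Each member is itself part of that mean, which raises its r, so these values cannot be compared with those of other genes. These correlations are a description: the 12 libraries form 6 groups from 3 tables, and library scaling is shared by all genes.

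Of 8258 genes with a mean of 5 FPKM or more outside the lists, the 10 whose levels were most like the members' mean were Endog (r = 0.96), Rdh11, Pdia5, Strada, Pttg1, Dusp1, Mrps6, Cdc6, Pank3 and Tuft1 (r = 0.93). Among the listed genes of the pathway, Fdps (r = 0.93) and Fads2 (r = 0.92) were nearest. Pttg1, which encodes securin, had 199 FPKM on average in Foxd3fl/fl 2i, 230 FPKM in Foxd3fl/fl SL and 80.3 FPKM in WT.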

How the data were processed

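The authors deposited 1 table per comparison (2i, SL, doxycycline); per the file headers each gives FPKM per library, and all levels and tests use these values. The authors' tables also give, per the file headers, mean reads per group, used here as a signal for read shares, a signed fold change, treated here as a score, and a p-value, which was adjusted here by Benjamini-Hochberg. Per the submitters' processing notes, FastQC, TopHat2, SAMtools, Cufflinks and DESeq2 were named, with the builds GRCm38 and mm10; no versions or settings are given. The medium of a table was read from the name of that table, and columns were assigned to libraries through their own headings. No column of per-sample values was left unmapped. The precision of each level rests on 2 libraries and on the group read sums given above; intervals per library need a depth that is not given.

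Here log2(FPKM + 1) was tested with limma 3.58.1 (trend, R 4.3.3), for genes with a mean of at least 1 FPKM in a group, with Benjamini-Hochberg adjustment over all genes tested and a threshold of 0.05; 4 libraries entered each comparison, and 8 the difference of responses. On this scale low genes show too small a change. The procedure was checked on simulated data with a fixed spread for all genes and with changes larger than those tested for the members. That check therefore does not cover the spread or the size of change found in these genes. The 2i and SL contrasts cross tables: the library scaling factors within the SL and doxycycline tables all lay near 1, so scaling within each table could not be told from scaling within each library, and these contrasts are described by whether both libraries of one group lay beyond both of the other. The replicate numbers were not taken as pairs, since each comparison holds only 2 of each.

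The members and gene lists were chosen with earlier results of these data known. All 8 members are named; of the other lists, the rule was up to 5 genes by adjusted p in the medium contrast, and without that p the size of the difference among genes without overlap took its place; Fdps and Srebf2 in that contrast, and the list genes named in the other contrasts, were chosen after their values were seen. The genes most like the members were the 10 of highest correlation. Mvd of the sterol list was not analysed here, and some listed genes are counted but not reported by name. Msmo1 is listed by the authors as Sc4mol. The rows of Acaca and Fntb join several symbols. Alternatives were median-of-ratios scaling, a pseudocount of 0.1, no filter, the replicate number as a block, the authors' p-values, and leaving out each library.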

Additional observations from a re-analysis of the deposited data

Results flagged for a closer look

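For 2 of the 8 genes the response to tamoxifen differed between the media by a test of the difference itself, in the model of the 8 libraries of the floxed line. Of the 8, 1 was higher and 1 lower, beside 18.4% of all genes higher and 5.55% lower. The response of Sqle was higher in 2i than in SL by 0.61 on the log2 scale (limma adjusted p = 0.00958): it was 0.58 in 2i and -0.03 in SL, and both 2i libraries labelled Foxd3-/- lay above both Foxd3fl/fl libraries. The response of Insig1 was lower in 2i, by a difference of -0.66 (limma adjusted p = 0.0197): it was -0.75 in 2i and -0.09 in SL, and both 2i libraries labelled Foxd3-/- lay below both Foxd3fl/fl libraries. Foxd3 transcript did not separate the 2i groups, and its part in either result was not tested. Over the 8 fits that each left out 1 library, Insig1 missed the threshold in 5 and Sqle in 2.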

How the results depend on the processing

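The pseudocount of 0.1 FPKM changed no call or direction among the members. Median-of-ratios scaling reversed Hmgcs1 (0.085) and Cyp51 (0.14) in 2i floxed against SL floxed, and Dhcr7 (-0.15, not called) in the difference of responses. As a share of the authors' mean reads Cyp51 reversed to 0.016. With WT in serum without feeders in place of SL floxed, another line, Hmgcs1 (0.39), Idi1 (0.073) and Cyp51 (0.47) reversed. Without the filter Lss in 2i kept its value of -0.24 and missed the threshold (limma adjusted p = 0.0668), and tetON against WT had 0 genes called by limma, against 316 with the filter, with 3232 genes at an unadjusted p under 0.05; the filter left fewer genes tested. The authors' deposited p-values called 107 genes in SL, against 1 here, and 909 in tetON against WT, and 0 members in both.

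As a replicate block, the replicate number gave 1997 genes in SL, with 1 member called (Dhcr7 -0.28, limma adjusted p = 0.0278), and 2473 genes in tetON against WT, with 1 member called (Fdft1 -0.55, limma adjusted p = 0.0114); in 2i and in the difference of responses it changed no member's call. The gap between replicate 1 and replicate 2 was correlated across genes between the 2 groups of a comparison. The r was 0.61 in SL (11838 genes), -0.05 in 2i (11314 genes) and 0.60 with doxycycline (11708 genes), each from only 2 pairs of libraries. The labels tie no number to a batch or day, so the numbers were not taken as pairs. Whether same-numbered libraries share a batch or day was not tested. The block and the fit of 8 libraries were not run for the medium contrasts, which have no test.

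Leaving out each library in turn gave 1 to 313 genes called in SL, 42 to 342 in tetON against WT, and 683 to 3761 in the difference of responses, with 0 to 3 members called there against 2 in full. In SL the range was -0.037 to 0.12 for Hmgcs1, -0.16 to 0.053 for Idi1, -0.0066 to 0.10 for Cyp51 and -0.24 to 0.069 for Insig1. In tetON against WT it was -0.28 to 0.064 for Hmgcs1, -0.25 to 0.087 for Sqle, -0.52 to 0.16 for Cyp51, -0.40 to 0.24 for Dhcr7 and -0.65 to 0.34 for Insig1. In the difference of responses it was -0.22 to 0.039 for Lss and -0.10 to 0.21 for Dhcr7. The cause of these changes was not tested. The counts of doxycycline libraries without WT replicate 1 and after scaling were chosen after seeing the data.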
